A study of Mus musculus with 24 samples.

Results

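Metrnl, Smpdl3b and Tnfaip8l2 are 3 genes that the study named among negative regulators of NF-κB, with Metrnl and Smpdl3b as m6A-marked targets of YTHDF2. They were taken by symbol from that discussion and matched to 3 of the 54446 Ensembl gene identifiers in the count files. The study reached them through genes that differed between irradiated and unirradiated mice, in WT and in cKO, and through an annotated group of inhibitors of inflammation enriched among them. Every Input comparison that contains the irradiated libraries (IR against Ctrl within either genotype, the difference between these changes, and cKO IR vs WT IR) is therefore given as a description without a test. Carrying m6A was also part of the choice, so the IP over Input ratios and peaks within a group are descriptions as well.

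N6-methyladenosine (m6A) is a methyl mark on mRNA. YTHDF2 is a reader protein that binds marked transcripts and speeds their decay, so loss of the reader is known to stabilise its targets. NF-κB is a family of transcription factors held back in the cytoplasm by IκB proteins, released by receptors such as the Toll-like receptors, and known in tumour myeloid cells for driving cytokine and chemokine genes. Metrnl encodes a secreted meteorin-like protein made by macrophages and adipose tissue. Smpdl3b encodes a membrane-anchored phosphodiesterase that limits Toll-like receptor responses in macrophages, and Tnfaip8l2 encodes a cytoplasmic protein (also called TIPE2) that dampens Toll-like and T cell receptor signalling.

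The libraries came from CD11b+ myeloid cells sorted from MC38 tumours, a transplanted mouse colon carcinoma line, in mice of C57BL/6J background. WT mice carried floxed Ythdf2 without Cre, and cKO mice carried floxed Ythdf2 with a Cre driven by the Lyz2 locus, which is active in many but not all myeloid cells. Tumours received a single dose of 20 Gy (IR) or none (Ctrl), and IR tumours were taken 3 days after it. PolyA RNA was sequenced before (Input) and after precipitation with an antibody against m6A (IP). The 24 libraries form 8 groups of 3 replicates, since each of the 4 combinations of genotype (WT or cKO) and treatment (Ctrl or IR) was read as Input and as IP. All groups were tumour-bearing, all mice carried the floxed alleles, and the growth protocol speaks of tumours or blood while every source label says tumours. The cells of a replicate were pooled from several mice and the methods call the replicates technical in one place and biological in another, so p-values measure the spread between libraries, which may be technical.

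Inputs held 65.2M to 83.7M gene counts and IP libraries 68.8M to 86.4M, so each of the 3 genes was read at least 1296 times in every Input. The targeted gene was examined first. Ythdf2 gene counts went against the knockout label, at 177.9 ± 6.05 CPM (counts per 1M, scaled by TMM) for cKO Ctrl and 222.6 ± 7.25 for cKO IR Inputs against 96.8 ± 1.23 for WT Ctrl and 105.0 ± 1.51 for WT IR (SD, n = 3 each), and a gene count does not show which exons were read. Lyz2, which carries the Cre, followed the labels in all 12 Inputs and in the Ctrl IP libraries. In the IR IP libraries it stood at the level of the other genotype, with a mean of 89.6 CPM under the WT IR label and 19700 CPM under the cKO IR label. IR IP groups are therefore named by their labels alone, and each result that rests on them is also given from the Ctrl libraries or against the other Inputs. Unscaled CPM of T and NK cell markers summed to at most 1.49 and of B cell markers to at most 1.15 in every Input, whereas Itgam, which encodes CD11b, stood at 386.0 CPM in WT Ctrl and 398.6 CPM in cKO Ctrl.

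The m6A antibody enriches short RNA fragments, and the peak caller marks where they pile up. m6A is laid down most often at an A inside the letters GGAC, most of all GGACT. The sequences below show, for each transcript, 2 sites of these letters that lay near the summits (highest points) of its peaks, each on the transcript strand of GRCm38, 5′ to 3′, with the motif in capitals. They were read from the RefSeq copy of the GRCm38 genome, on which the annotated coding exons of all 3 genes began with ATG and ended in front of TGA without a shift of frame.
Metrnl exon 2, coding, chr11:121707885-121707909, plus strand: agcctttcagGGACTcctctggagc
Metrnl exon 1, 5′ UTR, chr11:121702535-121702558, plus strand: gttcgcacgcGGACccacgcctcc
Smpdl3b exon 2, coding, chr4:132746647-132746670, minus strand: acctgcatctGGACcccaactaca
Smpdl3b exon 8, 3′ UTR, chr4:132733252-132733275, minus strand: aagtgggatgGGACacctggattc
Tnfaip8l2 exon 2, 3′ UTR, chr3:95139960-95139984, minus strand: tcagcacactGGACTttggcaaaat
Tnfaip8l2 exon 2, 3′ UTR, chr3:95139663-95139686, minus strand: ccgaggaaggGGACactaaaggcc

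All 12 summits of the Metrnl exon 2 peak lay within 50 bases of the GGACT site, the nearest at 12 bases. All 12 summits of the Smpdl3b exon 2 peak lay within 50 bases of its GGAC site, the nearest at 1 base. The other printed sites of these 2 genes matched fewer summits. The Metrnl exon 1 site had 5 of 10 summits within 50 bases, and a second GGAC under that peak, not printed, had 6 of 10. The Smpdl3b exon 8 site had 5 of 12, and the remaining summits there had no GGAC within 50 bases. In Tnfaip8l2 the summit fell near 1 of the 2 printed sites in every library, within 50 bases of GGACT in 7 libraries and of the more distal GGAC in 5. That GGACT holds its A 26 bases past the first base of the stop codon. Counted over windows of 101 bases around every summit, GGACT was present in 12 of 34 Metrnl peaks, none of 50 Smpdl3b peaks and 7 of 12 Tnfaip8l2 peaks, and GGAC (which includes GGACT) in 34, 20 and 12. The same windows around all peaks held GGACT in 10.6 to 11.5% and GGAC in 33.4 to 35.7%, depending on the library. Peaks of 1 place in different libraries share their sequence, only the transcript strand was searched, and a match is a description of the letters, not a mapped m6A site.

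The 3 transcripts carried their peaks in different layouts. Metrnl (ENSMUSG00000039208.15, chromosome 11, positions 121701544 to 121716306, plus strand) had peaks in 3 places: around the start codon in exon 1, in the coding part of exon 2, and in the coding part of exon 4. Smpdl3b (ENSMUSG00000028885.8, chromosome 4, positions 132732966 to 132757252, minus strand) had peaks in 6 places, spread from exon 2 to the last exon. Tnfaip8l2 (ENSMUSG00000013707.3, chromosome 3, positions 95139521 to 95142360, minus strand) had 1 broad peak of 1101 to 1122 bases that covered nearly all of exon 2, with the whole coding sequence and most of the 3′ UTR. Peaks often ran past the exon edge into the neighbouring intron, and for 2 of the Smpdl3b places the summit itself lay at or beyond that edge.

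**Figure D1:**
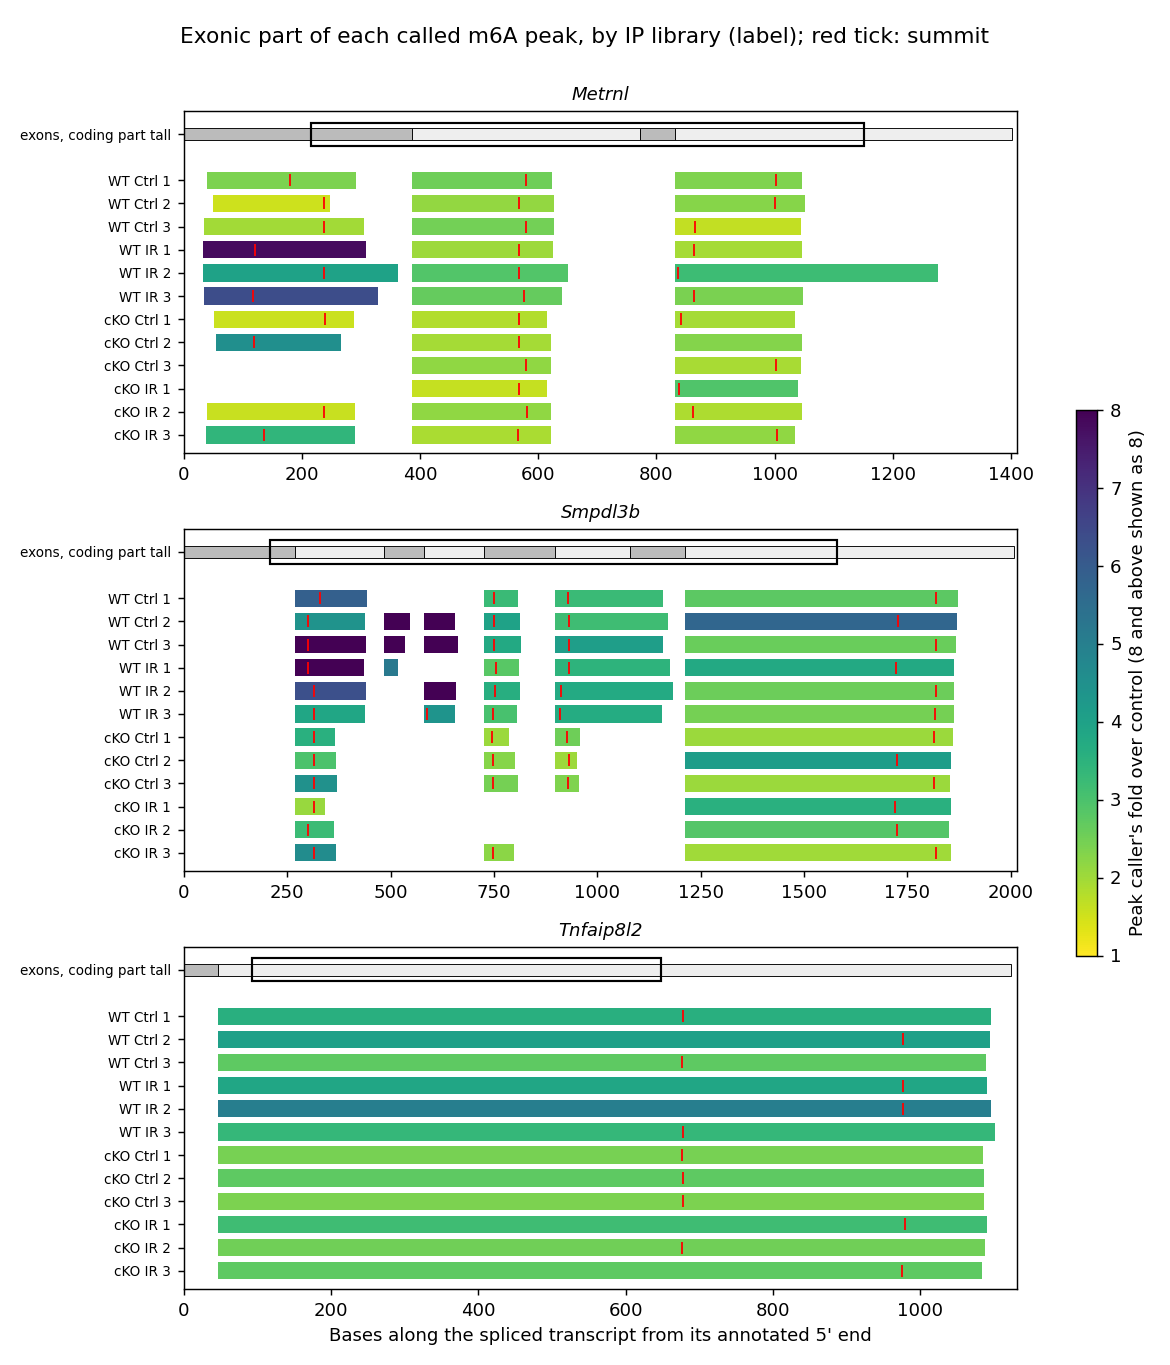
Called m6A peaks on the spliced Metrnl, Smpdl3b and Tnfaip8l2 transcripts, with the 12 IP libraries as rows and bases from the annotated 5′ end on the x axis. Bars are the exonic part of each peak, coloured by the peak caller's fold over its control, red ticks are summits inside exons, and the top row of each panel gives the exons with the coding part tall. The broad Tnfaip8l2 peak is in all 12 libraries, and the Smpdl3b peak over exons 6 and 7 spans 446 to 473 bases of genome in the 6 libraries labelled WT, 151 to 157 in cKO Ctrl and is absent in the 3 labelled cKO IR.

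A consensus peak was called in a group when all 3 replicates had a peak there. Metrnl had 3 consensus peaks under each WT label and 2 under each cKO label. Smpdl3b had 2 under the cKO IR label and 4 in each other group, and Tnfaip8l2 had 1 in each group. For scale, the median over the 3758 to 5002 genes with any consensus peak was 2 in every group, and 19.8% of them had at least 4 in WT Ctrl.

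The place that varied most in Metrnl was the start codon peak. It was called in all 3 WT Ctrl libraries with a fold of 1.54 to 2.38, in all 3 libraries labelled WT IR with a fold of 3.96 to 7.78, and in 2 of 3 libraries under each cKO label, at 1.56 and 4.55 in cKO Ctrl and at 1.59 and 3.41 under the cKO IR label. The exon 2 and exon 4 peaks were called in all 12 libraries, with a fold of 1.60 to 2.90 and 1.64 to 3.21. Their ranges overlapped between all groups.

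In Smpdl3b the peaks of exons 5 to 7 had a lower fold in cKO Ctrl than in WT Ctrl. The fold was 3.25 to 3.97 against 2.04 to 2.47 at exon 5 and 3.17 to 4.11 against 2.02 to 2.53 at exons 6 and 7. The latter peak measured 447 to 456 bases in WT Ctrl and 446 to 473 under the WT IR label, but 151 to 157 in cKO Ctrl, where it no longer reached exon 7. No library labelled cKO IR had it, and 1 of 3 had the exon 5 peak. The exon 2 peak was called in all 12 libraries and was also wider in WT Ctrl (281 to 285 bases) than in cKO Ctrl (200 to 207 bases), while its fold overlapped (4.41 to 8.25 and 2.98 to 4.47). Short peaks at exon 3 (3 libraries) and exon 4 (4 libraries) appeared in libraries labelled WT alone, with a fold of up to 12.4. The last-exon peak, whose summit lay in the 3′ UTR, was called in all 12 libraries with a width of 747 to 776 bases. With 3 libraries a group no exact test of these widths can go below p = 0.10, and none was run. The share of all peaks whose fold or width separates the genotypes in this way was not counted. The caller's fold is set against a control library that the methods do not name, and Smpdl3b stood higher in the cKO Inputs (below). Its part in the peak calls was not tested.

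For Tnfaip8l2 the fold of the single peak was 2.75 to 4.04 in WT Ctrl and 2.38 to 2.72 in cKO Ctrl. It was 3.34 to 5.02 under the WT IR label and 2.52 to 3.18 under the cKO IR label. These ranges do not overlap between the genotype labels of either treatment, and the control of these values carries the same limit.

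Turning to transcript levels, the Inputs were compared between genotypes before irradiation, a contrast that the choice did not use, although its 6 Inputs are the unirradiated side of the contrasts that it did use. All 3 genes were higher in cKO Ctrl than in WT Ctrl, in a comparison that called 8.05% of the 16090 genes tested as higher and 15.7% in either direction. Levels are CPM, changes are on the log2 scale from edgeR's quasi-likelihood fit of the 12 Inputs, and adjusted p-values are by Benjamini-Hochberg over all 16090 genes. In bulk RNA, more cells of a type that expresses a gene and more RNA per cell cannot be told apart.

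Metrnl stood at 84.6, 78.7 and 80.9 CPM in the 3 WT Ctrl Inputs and at 99.95, 105.9 and 104.1 in the 3 cKO Ctrl Inputs. The groups did not overlap. The rise was 0.34 (SE 0.04, edgeR adjusted p = 7.9e-06), or 1.27-fold. The Inputs of irradiated tumours lay lower in each genotype, at 71.2, 65.8 and 65.4 CPM in WT IR and 86.0, 87.6 and 91.7 in cKO IR.

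Smpdl3b, the phosphodiesterase gene, showed the largest genotype difference of the 3 before irradiation. It stood at 26.3, 24.03 and 22.7 CPM in WT Ctrl and at 40.8, 44.5 and 41.1 in cKO Ctrl, with every cKO library above every WT library. The rise was 0.79 (SE 0.06, edgeR adjusted p = 2.7e-09), or 1.73-fold, larger than 97.4% of all changes in this comparison. In irradiated tumours it stood at 20.2, 20.5 and 20.7 CPM in WT IR and at 32.3, 33.6 and 33.3 in cKO IR.

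Tnfaip8l2 stood at 30.4, 30.4 and 32.7 CPM in WT Ctrl and at 42.6, 42.1 and 39.7 in cKO Ctrl, again without overlap. The rise was 0.41 (SE 0.06, edgeR adjusted p = 3.5e-05), or 1.33-fold. In irradiated tumours it stood at 28.6, 23.9 and 25.2 CPM in WT IR and at 40.6, 42.4 and 42.6 in cKO IR. The cKO IR libraries overlapped the cKO Ctrl libraries, unlike those of the other 2 genes.

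**Figure D2:**
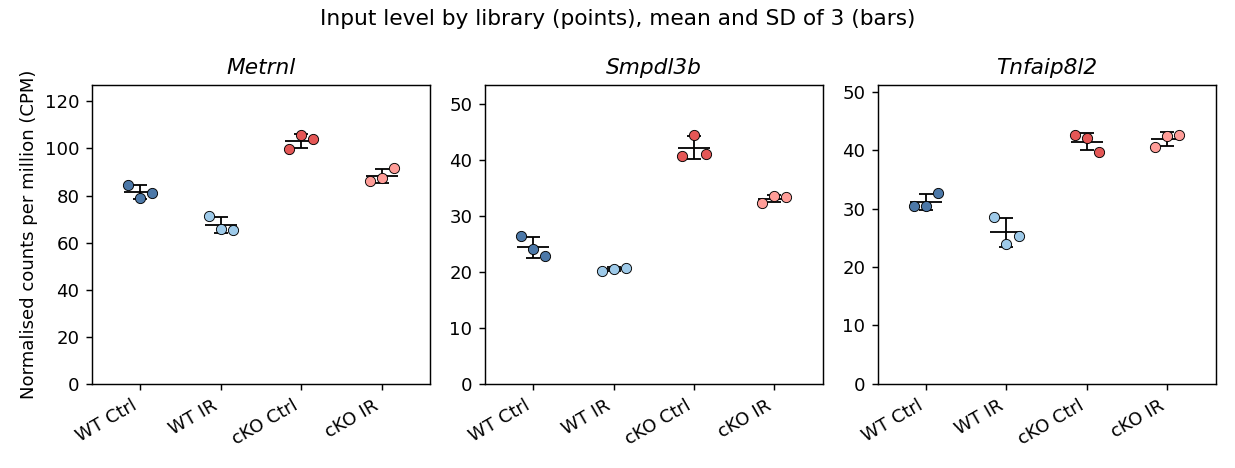
Input levels of the 3 genes in CPM (y axis from 0) for the 4 Input groups, with 1 point per library and the mean with SD of 3 as bars. Both cKO groups lie above both WT groups for each gene, and the cKO Ctrl and cKO IR libraries overlap for Tnfaip8l2 alone.

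The contrasts that the choice of genes rests on read as follows, without a test. In WT IR vs WT Ctrl the change was −0.27 for Metrnl (SE 0.04), −0.25 for Smpdl3b (SE 0.06) and −0.27 for Tnfaip8l2 (SE 0.06), where 17% of all genes were called lower. In cKO IR vs cKO Ctrl the values were −0.22 (SE 0.04), −0.35 (SE 0.06) and 0.01 (SE 0.06), where 23.8% of all genes were called lower and 45.6% in either direction. For Metrnl and Smpdl3b the cKO libraries thus stood lower after irradiation, as the WT libraries did, and for Tnfaip8l2 only the WT libraries did.

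The change in cKO minus the change in WT was 0.05 for Metrnl (95% interval −0.07 to 0.17), −0.10 for Smpdl3b (95% interval −0.26 to 0.06) and 0.28 for Tnfaip8l2 (95% interval 0.12 to 0.44), where 30.2% of all genes were called. The choice of genes enters this difference through both of its parts.

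In cKO IR vs WT IR the values were 0.39 (SE 0.04), 0.69 (SE 0.06) and 0.69 (SE 0.06) in the same order of genes, where 23.9% of all genes were called higher. Set beside the untreated tumours, Metrnl read 0.34 and then 0.39, Smpdl3b 0.79 and then 0.69, and Tnfaip8l2 0.41 and then 0.69.

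**Figure D3:**
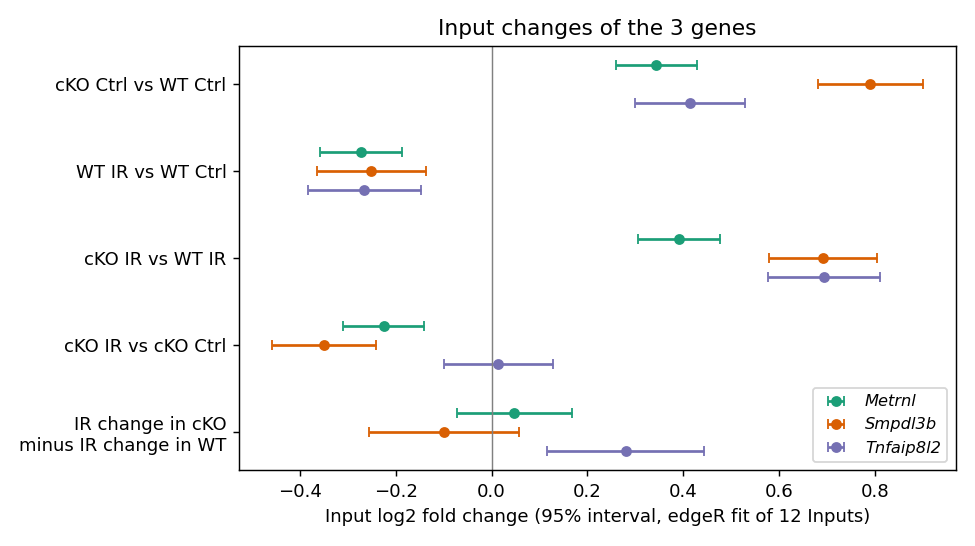
Input log2 fold changes of the 3 genes (x axis) with 95% intervals from the edgeR fit of 12 Inputs, for 4 contrasts and the interaction, the change in cKO minus that in WT (rows). Metrnl and Smpdl3b lie below 0 after irradiation in both genotypes (−0.27 and −0.25 in WT, −0.22 and −0.35 in cKO), and Tnfaip8l2 is at −0.27 in WT and 0.01 in cKO.

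The order of the groups was cKO Ctrl, cKO IR, WT Ctrl, WT IR from high to low for Metrnl and Smpdl3b, with no overlap between any neighbours in that order. For Tnfaip8l2 it was cKO IR and cKO Ctrl, which overlapped, then WT Ctrl and WT IR. The pair cKO IR and WT Ctrl was not tested. How many of all genes show such an order, or Input groups without overlap as given above, was not counted. These statements therefore describe the 3 genes only. Per kilobase of exon, the scale on which genes can be compared with each other, the mean Input level in WT Ctrl was 51.3 CPM per kb for Metrnl, 27.7 for Tnfaip8l2 and 12.1 for Smpdl3b. Metrnl ranked above 93.4% of 12822 protein-coding genes on that scale, Tnfaip8l2 above 87.6% and Smpdl3b above 73.5%, and the 3 genes kept this order in every group.

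The levels of methylated fragments, read from the IP libraries, behaved differently from the Inputs. These levels are scaled over all 24 libraries and are not on the scale of the Input levels above. Between the untreated genotypes, where 13.1% of 17373 genes tested were called higher and 26.7% in either direction, 2 of the 3 genes were called.

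Smpdl3b stood at 93.1, 93.8 and 98.3 CPM in the WT Ctrl IP libraries and at 98.6, 100.03 and 100.1 in cKO Ctrl. The groups lay side by side, with a difference of 0.07 (95% interval −0.02 to 0.15, edgeR adjusted p = 0.28), although its Input differed by 0.79. Metrnl stood at 141.3, 142.0 and 140.1 CPM in WT Ctrl and at 150.1, 162.3 and 154.9 in cKO Ctrl, a rise of 0.14 (SE 0.04, edgeR adjusted p = 0.0035). Tnfaip8l2 stood at 194.6, 192.9 and 193.1 CPM in WT Ctrl and at 233.1, 246.7 and 238.9 in cKO Ctrl, a rise of 0.31 (SE 0.04, edgeR adjusted p = 4.3e-07).

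After irradiation, the 6 IR IP libraries of Smpdl3b lay between 65.4 and 72.8 CPM (median 66.9) and all 6 Ctrl IP libraries between 93.1 and 100.1 (median 98.5). This separation does not depend on the genotype label of any IR library. The share of all genes that separate in this way was not counted, so it is a description of this gene alone. For Metrnl the 6 IR libraries (160.5 to 174.6 CPM) lay above 5 of the 6 Ctrl libraries (140.1 to 162.3), whereas its Inputs were lower after irradiation in both genotypes. For Tnfaip8l2 the ranges overlapped, at 205.3 to 257.1 CPM in IR and 192.9 to 246.7 in Ctrl. Between the groups labelled cKO IR and WT IR, a comparison that called 35.8% of all genes, only Tnfaip8l2 of the 3 was called, at 0.26 (SE 0.04, edgeR adjusted p = 4.2e-06), with Metrnl at 0.05 (edgeR adjusted p = 0.27) and Smpdl3b at −0.08 (edgeR adjusted p = 0.17). With the genotypes of these libraries in doubt, no direction between genotypes is drawn from it.

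**Figure D4:**
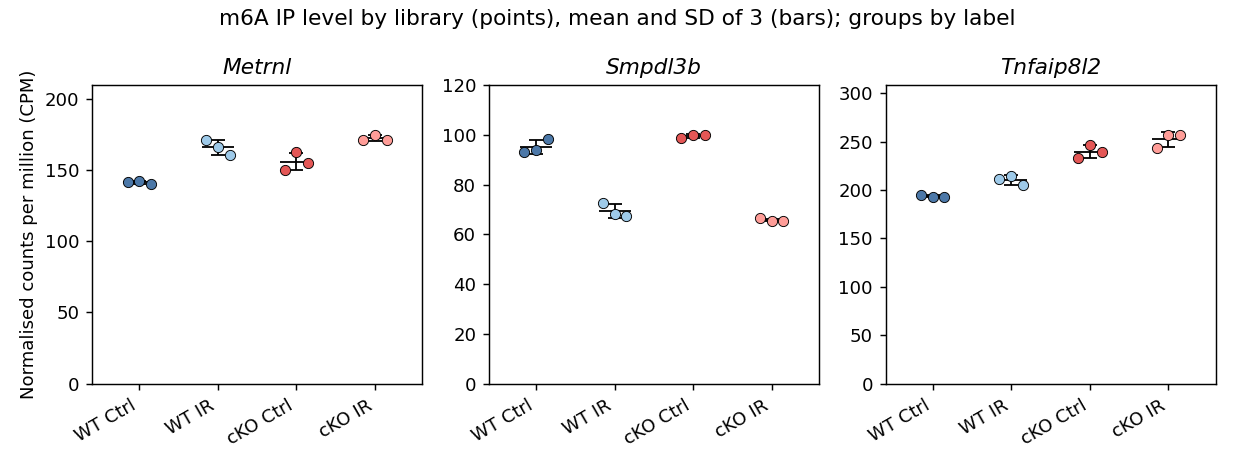
m6A IP levels of the 3 genes in CPM (y axis from 0) by labelled group, with 1 point per library and the mean with SD of 3 as bars. The 6 irradiated libraries of Smpdl3b lie at 65.4 to 72.8 CPM, below all 6 untreated libraries at 93.1 to 100.1. How many other genes separate in this way was not counted.

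The ratio of IP over Input was then taken in one edgeR fit of the 24 libraries. In WT Ctrl it was 0.68 on the log2 scale for Metrnl (SE 0.04), 1.86 for Smpdl3b (SE 0.05) and 2.53 for Tnfaip8l2 (SE 0.05), higher than in 69.6%, 90.5% and 95.1% of all genes. In that group 38.1% of genes were called as enriched. In cKO Ctrl, where 37.8% were called, the ratios were 0.47, 1.12 and 2.41. By label they were 1.19, 1.66 and 2.92 for WT IR (37% of all genes called as enriched) and 0.86, 0.89 and 2.48 for cKO IR (36.9% called). Tnfaip8l2, which had the fewest peaks, thus had the highest ratio in each group, and its broad peak covered most of the transcript.

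In the untreated libraries the ratio of 2 of the 3 genes was lower in cKO than in WT, in a comparison that called 12.5% of all genes lower and 22.6% in either direction. The difference was −0.73 for Smpdl3b (SE 0.06, edgeR adjusted p = 5.3e-11) and −0.21 for Metrnl (SE 0.05, edgeR adjusted p = 0.0031). For Tnfaip8l2 it was −0.12 (95% interval −0.24 to 0.01, edgeR adjusted p = 0.20). The IP level of Smpdl3b differed by 0.07 and its Input by 0.79, so nearly all of its difference in ratio lay on the Input side.

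In the irradiated libraries the ratio was lower against cKO Inputs than against WT Inputs whichever IP libraries were set against them, given here without a test because the Inputs of this contrast served the choice of genes. By label, the difference between cKO IR and WT IR was −0.34 for Metrnl (SE 0.05), −0.77 for Smpdl3b (SE 0.06) and −0.43 for Tnfaip8l2 (SE 0.06), where 21.3% of genes were called lower and 38.3% in either direction. With each IP group set against the Inputs of the other genotype, whose Lyz2 level it carried, the libraries labelled cKO IR minus those labelled WT IR gave 0.45, 0.61 and 0.96, where 44.9% of genes were called in either direction. In that reading the genotype goes with the Inputs, and the ratio against cKO Inputs was 0.80 for Metrnl, 0.97 for Smpdl3b and 2.22 for Tnfaip8l2, below 1.25, 1.58 and 3.18 against WT Inputs. The size of the difference depended on the reading. The IP levels differed less between the IR groups (0.05, −0.08 and 0.26) than the Inputs did (0.39, 0.69 and 0.69). The lower ratio against cKO Inputs in both readings thus follows from the Inputs, which both readings share.

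**Figure D5:**
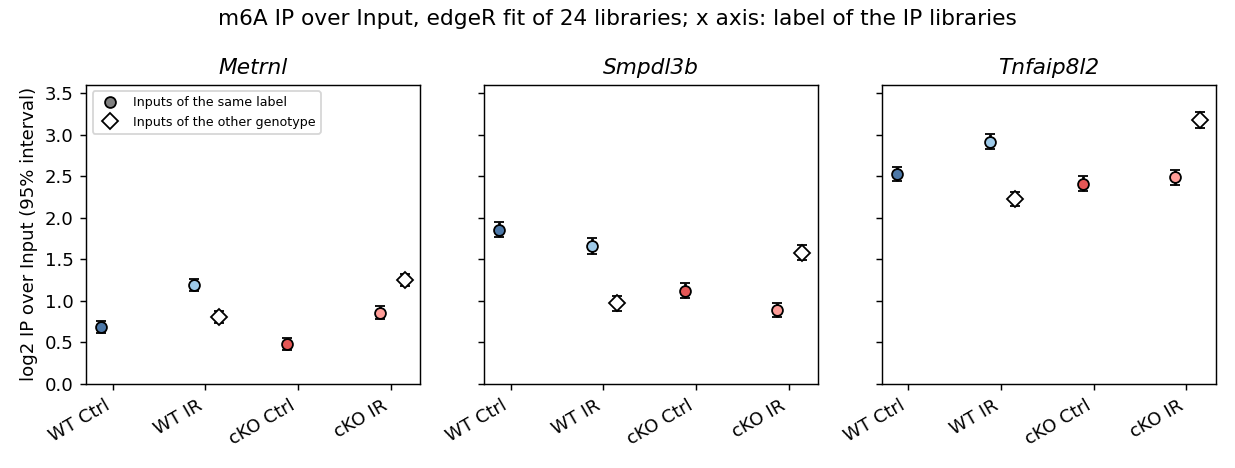
IP over Input on the log2 scale (y axis) with 95% intervals from the edgeR fit, by the label of the IP libraries. Filled circles use the Inputs of the same label and open diamonds those of the other genotype, and for each gene the order of the IP labels WT IR and cKO IR is opposite between circles and diamonds, with the value against cKO Inputs the lower one in both, for example 0.89 against 1.66 as circles and 0.97 against 1.58 as diamonds for Smpdl3b.

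The genes around NF-κB were described next through lists of inhibitors, core signalling parts and target genes. Of 32 inhibitors of the pathway, 8 were higher and 1 was lower in cKO Ctrl than in WT Ctrl (25% and 3.1%, against 8.05% and 7.61% of all genes), with a median change of 0.07. The largest rises were Usp18, an interferon-signalling inhibitor, at 0.68 (SE 0.10), Irak3, an inhibitory kinase of Toll-like receptor signalling, at 0.47 (SE 0.03), and Socs3, a cytokine signalling inhibitor that the study named with the 3 genes, at 0.38 (SE 0.05). Tax1bp1, an adaptor of the deubiquitinase A20, was the 1 that fell, at −0.12 (SE 0.03). Each passed at an edgeR adjusted p of at most 0.017, and Smpdl3b rose by more than any of these inhibitors.

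In cKO IR vs WT IR the inhibitors went both ways, with 10 higher and 9 lower of 32 (median −0.01), against 23.9% and 23.8% of all genes. Usp18 (0.91), Commd1 (0.60), which promotes turnover of RelA, and Ptpn6 (0.44), a phosphatase, rose most, and Traf3 (−0.45), Zfp36 (−0.39), which destabilises cytokine mRNA, and Otud7b (−0.34), a deubiquitinase, fell most. Each of these 6 passed at an edgeR adjusted p of at most 5.2e-05.

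Of 17 core parts of the pathway, 5 were higher and 1 lower in cKO Ctrl vs WT Ctrl (29.4% and 5.88%, against 8.05% and 7.61% of all genes). Nfkb1, which encodes p105 and p50, rose by 0.20, Tab2 by 0.19 and the adaptor gene Myd88 by 0.14, while Ikbkg, which encodes NEMO, fell by 0.26 (edgeR adjusted p of at most 0.023 each). In cKO IR vs WT IR, 1 was higher (Myd88, 0.32) and 10 were lower (5.88% and 58.8%, against 23.9% and 23.8% of all genes), led by Traf6 (−0.35), Rel (−0.33) and Nfkb2 (−0.29), each at an edgeR adjusted p of at most 3.1e-05.

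Of 24 NF-κB target genes tested (Csf2 did not pass the filter), 17 were higher and 1 lower in cKO Ctrl vs WT Ctrl (70.8% and 4.17%, against 8.05% and 7.61% of all genes), with a median change of 0.30 where the median over all genes was −0.00. The chemokine genes Ccl2 (1.10, SE 0.09) and Ccl4 (0.93, SE 0.08) and the cytokine gene Il6 (0.74, SE 0.10) rose most, and Ccl5 fell by 0.18 (SE 0.05), each at an edgeR adjusted p of at most 0.011. In cKO IR vs WT IR, 18 were higher and 1 lower (75% and 4.17%, against 23.9% and 23.8% of all genes). Ccl2 (2.13), Ccl4 (1.62) and Il6 (1.22) again rose most, and Ccl5 fell by 0.17 (edgeR adjusted p of at most 0.0054 each). The 3 negative regulators and most target genes of the pathway thus stood higher in the same cKO Inputs.

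Among relatives of the 3 genes the share called was close to that of all genes. Of 8 family genes tested, 1 was higher in cKO Ctrl vs WT Ctrl (12.5%, against 8.05% of all genes), Tnfaip8l1 at 0.52 (SE 0.15, edgeR adjusted p = 0.019), a gene of 3.01 CPM in WT Ctrl. RLE scaling and DESeq2 each also called 1 family gene lower. Smpdl3a, the closest relative of Smpdl3b and the most abundant of the family at 83.5 CPM per kb in WT Ctrl, stood at −0.13 (edgeR adjusted p = 0.061), and Tnfaip8l3 at −0.08 (edgeR adjusted p = 0.53). Metrn, the relative of Metrnl, stood at 0.16 (edgeR adjusted p = 0.55). The sphingomyelinase genes Smpd1, Smpd2, Smpd3 and Smpd4 stood at −0.02, 0.30, −0.04 and 0.04 (edgeR adjusted p of at least 0.085), with an SE of 0.11 for Smpd2 and 0.48 for Smpd3 that leaves room for a change. In cKO IR vs WT IR, Metrn (0.58) and Tnfaip8l1 (0.46) were higher and Smpd4 (−0.23) was lower (25% and 12.5%, against 23.9% and 23.8% of all genes), with edgeR adjusted p of at most 0.019. Smpdl3a (0.01), Smpd1 (−0.01), Smpd2 (0.04), Smpd3 (−0.16) and Tnfaip8l3 (0.03) were not called there (edgeR adjusted p of at least 0.72).

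The genes whose level followed each of the 3 most closely over the 12 Inputs were looked up among 9073 protein-coding genes, by Pearson's r of log2(CPM + 1). These are descriptions over 4 groups, and 1.8 to 2.7% of the genes reached an r over 0.9 with a given member. Metrnl ran with Gbp7 (r = 0.98), Slamf8, Maf, C1qc and Herpud1, of which C1qc, a complement gene of macrophages, stood at 210.2 CPM (WT Ctrl), 171.8 CPM (WT IR), 271.05 CPM (cKO Ctrl) and 234.7 CPM (cKO IR), the means of 3 Inputs. Smpdl3b ran with Slfn8 (r = 0.99), Lgals3bp, Irak3, Aoah and Eif2ak2, and Tnfaip8l2 with Oas1a (r = 0.99), Ccl4, Tor3a, Tpi1 and H2-Eb1. Oas1a, an interferon-induced gene, stood at 22.6, 16.3, 41.4 and 43.9 CPM in the same order. The opposite pattern was closest in Satb1, Itga6, Rragd, Ecpas and Rnf128 for Metrnl (r of −0.98 to −0.97). For Smpdl3b it was closest in Slc40a1, the iron exporter gene (r = −0.98), Gclc, Chst15, Gstm1 and Mxd1, and for Tnfaip8l2 in Rc3h2 (r = −0.99), Fmnl2, Zbtb20, Myo5a and Zfp523. Among themselves the 3 genes had r of 0.95 (Metrnl and Smpdl3b), 0.90 (Metrnl and Tnfaip8l2) and 0.90 (Smpdl3b and Tnfaip8l2).

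Markers of the sorted cell types moved with both factors. Summed over 8 neutrophil markers, all detected in every group, the Inputs held 2144 to 2249 CPM in WT Ctrl, 1142 to 1157 in cKO Ctrl, 746.6 to 787.5 in WT IR and 730.3 to 745.8 in cKO IR. From WT Ctrl to cKO Ctrl only Csf3r rose, from 116.6 to 129.5 CPM, while S100a9 fell from 1033 to 380.9. From WT IR to cKO IR, Mmp9 rose from 117.7 to 177.5 and Csf3r from 76.3 to 84.2. The others fell, among them Mmp8 from 310.5 to 253.9 and S100a9 from 176.3 to 146.5. The sum of 6 monocyte markers was 1615 to 1655 CPM in WT Ctrl and 1620 to 1651 in cKO Ctrl, and was 1166 to 1168 in WT IR and 941.8 to 950.2 in cKO IR. The near equal sums of the Ctrl groups hold members that went opposite ways, since the mean of Chil3 was 536.3 CPM in WT Ctrl and 336.8 in cKO Ctrl while Ccr2 went from 148.8 to 199.1, Fn1 from 801.7 to 930.8 and Ly6c2 from 88.4 to 103.7. Members also went opposite ways between WT IR and cKO IR. Fn1 fell from 819.3 to 510.0 CPM and Vcan from 77.5 to 57.1. Ly6c2 rose from 55.1 to 91.7, Ccr2 from 75.7 to 96.5, Chil3 from 139.0 to 189.4 and Plac8 from 0.17 to 0.42. The sum of 8 macrophage markers lay between 3778 and 4459 CPM in all 12 Inputs, most of it from Apoe, at 2413 CPM in WT Ctrl and 2180 in cKO Ctrl. Trem2 also stood lower in cKO Ctrl than in WT Ctrl, at 153.3 against 163.9 CPM. The other macrophage markers stood higher in cKO Ctrl, as the 3 genes did. C1qa stood at 112.9 against 67.5 CPM, Adgre1 at 807.7 against 613.4 and C1qb at 507.4 against 392.7. C1qc stood at 272.9 against 209.98, Mrc1 at 250.6 against 212.0 and Mertk at 82.4 against 69.7. In irradiated tumours the markers split otherwise. Mrc1 (184.1 against 224.1 CPM), Mertk (72.8 against 80.7) and Apoe (2414 against 2426) stood lower in cKO IR than in WT IR, unlike the 3 genes. Adgre1, C1qa, C1qb, C1qc and Trem2 stood higher. The sum of 7 dendritic cell markers went from 405.0 to 415.1 in WT Ctrl to 620.1 to 638.5 in WT IR, with 460.7 to 467.0 in cKO Ctrl and 702.5 to 737.2 in cKO IR. Most of this sum came from Ccr7, whose mean rose with irradiation from 365.0 to 559.7 CPM (WT) and from 420.7 to 656.1 (cKO). Zbtb46 (32.1 to 53.6 CPM over the groups) and Flt3 (9.72 to 15.8) were also higher after irradiation in each genotype. Clec9a, Xcr1, Cd209a and Siglech each stood at 0.64 CPM or less in every group. Of these, Xcr1, Cd209a and Siglech had no count in WT IR and Xcr1 none in cKO Ctrl. Tumour epithelial markers summed to at most 8.06 CPM and fibroblast and endothelial markers to at most 4.23. The sum of 6 erythroid and platelet markers was 195.6 to 205.8 in the Ctrl Inputs and 298.7 to 372.2 in the IR Inputs. Most of that sum came from Pf4, whose mean rose with irradiation from 175.8 to 238.6 CPM (WT) and from 174.4 to 325.4 (cKO). The haemoglobin genes of the list were read almost only in WT IR. There Hbb-bs stood at 13.2 CPM, Hba-a1 at 6.92, Hba-a2 at 5.17 and Hbb-bt at 1.14, against at most 0.013 in each other group. The part of these shifts in the changes of Metrnl, Smpdl3b and Tnfaip8l2 was not tested.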

How the data were processed

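Reads had been trimmed (Trimmomatic 0.39), mapped to mm10 (GRCm38) by HISAT with the GENCODE vM19 annotation in a stranded mode, and assigned to genes by HTSeq. The deposited tables are raw counts, 1 per library. For each IP library the authors ran MACS2 on either strand and kept peaks with a q-value under 0.01. The deposited peak lists give a fold (a ratio over a control library not given in the sources used here), a −log10 p-value, a −log10 q-value and a score derived from the q-value. HTSeq summary lines were left out: reads outside genes were 2.97 to 6.80% and ambiguous reads 2.27 to 2.68% of the gene counts.

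The genes and lists were chosen with earlier results of these data known. Of the identifiers, 54409 matched GENCODE vM21 and 37 did not. No annotated gene overlaps the 3 genes on their strand. Counts were tested with edgeR 4.0.16 (TMM, quasi-likelihood, at least 10 counts in at least 3 libraries) in R 4.3.3, with 12 Inputs in one fit and 24 libraries in another, and genes were called at an adjusted p under 0.05. The common biological variation was 5.57% and 4.98%. The tests were tried on simulated counts first. DESeq2 1.42.0, other scaling and filters, a replicate block and leaving out each library served as alternatives. No 2 replicates agreed within sampling noise. Consensus peaks needed 3 of 3 replicates and an overlap of at least 1 bp, and peaks of the 12 libraries were grouped into places by overlap, a step chosen after seeing the data. Named genes were the 3 members, Ythdf2 and Lyz2, per list the 3 largest called rises and falls in cKO Ctrl vs WT Ctrl and cKO IR vs WT IR, all family genes, and per member the 5 genes of highest and of lowest r with a mean of at least 5 CPM. Marker genes with values, and C1qc and Oas1a, are given as examples.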

Additional observations from a re-analysis of the deposited data

How the results depend on the processing

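Apart from Tnfaip8l2 in cKO IR vs cKO Ctrl, the Input directions of Metrnl, Smpdl3b and Tnfaip8l2 were unchanged in every alternative. Their calls in cKO Ctrl vs WT Ctrl were unchanged as well. The alternatives were RLE scaling, no filter, a minimum of 50 counts, DESeq2, the 6 libraries of the contrast alone (not run for the interaction), the replicate block and every fit without 1 library. The excepted Tnfaip8l2 change was 0.01 in the main fit. It ran from −0.02 to 0.04 in the fits without 1 library and was called in none of them. Among the IP results, tried without the 50-count and 6-library settings but also in a fit of the Ctrl libraries alone, the exception was the difference in IP over Input between the groups labelled cKO IR and WT IR, which turned in sign by IP label from −0.34, −0.77 and −0.43 to 0.45, 0.61 and 0.96 against the Inputs of the other genotype. The ratio against cKO Inputs was the lower one in both settings, which use the same Inputs. The Inputs differed by 0.39, 0.69 and 0.69 between cKO IR and WT IR, and the IP levels by 0.05, −0.08 and 0.26. This order therefore restates the Input contrast and is no separate result. Replicate numbers did not pair the libraries: correlations of same-numbered deviations ran from −0.43 to 0.23, and 0 of 28 pairs of groups had all above 0.1. With the replicate block the change of Tnfaip8l2 in cKO Ctrl vs WT Ctrl was 0.41 (edgeR adjusted p = 0.00013), and genes called in cKO Ctrl vs WT Ctrl went from 2520 to 2283.

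Some counts moved by more than 1.5 times. Genes called in cKO Ctrl vs WT Ctrl numbered 3870 in a fit limited to its 6 libraries, against 2520. In that comparison DESeq2 called 2 inhibitors lower in place of 1, and RLE scaling and DESeq2 each called 1 family gene lower, which TMM scaling with edgeR did not. With a fold of at least 4 required, 1 consensus peak of Smpdl3b was left in WT Ctrl, and 0 were left for the other gene and group combinations. With 2 of 3 replicates sufficing, Metrnl had 3 in every group and Smpdl3b 6 in WT Ctrl, 5 under the WT IR label, 4 in cKO Ctrl and 2 under the cKO IR label. Of 768 values under an alternative, 16 moved in this way and 3 turned in sign with a call in the main or the alternative fit. A turn in sign between values called in neither fit was not counted. The peak lists carry no reads per base, so a peak missing from a library is not shown to be absent, and 3 libraries a group limit the precision.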
